A study of Mus musculus with 24 samples.

Results

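The 10 genes described here encode enzymes of glucose, lactate and pyruvate metabolism. They were taken from the 25965 entries of the deposited expression table by symbol alone: the lactate dehydrogenase subunits Ldha and Ldhb, the bisphosphoglycerate mutase Bpgm, the hexokinase Hk1, the phosphofructokinases Pfkl, Pfkm and Pfkp, the phosphoglycerate kinase Pgk1, the enolase Eno1 and the pyruvate dehydrogenase subunit Pdha1. All 10 had an entry. Each library was made from 1 naturally ovulated oocyte of an adult mouse, freed of its cumulus cells and zona pellucida before lysis. The females were either wild type (Thy1.2-AMH0/0) or carried the transgene (Thy1.2-AMHTg/0), which overexpresses anti-Müllerian hormone (AMH), a hormone of the granulosa cells of growing follicles. The Thy1.2 promoter is known for driving transgenes in neurons. The labels give no strain and no age beyond adult, and name natural ovulation as the treatment of both groups.

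There were 4 females per genotype, paired by sequencing lane: lanes 1 to 4 each carried 1 transgenic and 1 wild-type female. Values were analysed for 11 wild-type and 10 transgenic oocytes, 2 or 3 from each female, and for 1 library of the kit's control RNA, whose tissue the labels do not name. An oocyte is named here by genotype, lane and letter, so that wild-type 4B is oocyte B of the wild-type female of lane 4. Levels are in RPM (reads per gene, scaled to a library of 1000000), which measure a share of the RNA and not the amount in an oocyte. The oocyte libraries totalled between 20400000 and 33300000 reads, and 3 reads, the limit that a count of 0 allows, stood for 0.0900 to 0.147 RPM. Females, not oocytes, were the replicates (n = 4 in each group).

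A fully grown mouse oocyte uses glucose poorly. Its textbook fuel is pyruvate, delivered by the cumulus cells or made from lactate by the oocyte's own lactate dehydrogenase, and burned in the mitochondria after pyruvate dehydrogenase has turned it into acetyl-CoA. Glycolysis begins with hexokinase, is paced by phosphofructokinase and ends with pyruvate kinase, and most of its steps have several isoenzymes made from different genes.

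The oocyte label was checked against marker genes. All 12 oocyte markers had a mean of at least 1 RPM, with a sum of 24831 to 41174 RPM per oocyte against 21.8 RPM in the control RNA. Of 28 cumulus and granulosa markers 1, Tnc, had a mean of at least 1 RPM, and Foxl2, Npr2, Slc38a3, Areg, Ereg and Pgr had 0 reads in every oocyte. The cumulus sum per female was 2.41 to 9.51 RPM in transgenic and 3.26 to 16.5 RPM in wild-type females, and the highest oocyte was wild-type 2C at 40.3 RPM. Of 9 blood genes in the table none reached a mean of 1 RPM. Of 7 oviduct markers, Cdh1 and Epcam did, while Foxj1, Pax8 and Krt19 had 0 reads. Amh itself had 0 reads in 20 of 21 oocytes and at most 0.0353 RPM, so it does not check the genotype labels in these cells. Of the 8 females, 2 stood apart from the rest. Both oocytes of the wild-type female of lane 4 lay above all other oocytes in 535 of the 10987 genes tested, or 4.87%, and below them in 280. Both oocytes of the transgenic female of lane 1 lay above all others in 147 genes and below them in 403. The other 6 females had 1 to 33 genes above and 1 to 34 below. Such a count is easier to reach with 2 oocytes than with 3, and most of those 6 females had 3. The transgenic female of lane 4, also with 2 oocytes, had 25 genes above and 20 below. Without the transgenic female of lane 1, none of the 10 genes had an unadjusted p under 0.05 in the genotype comparison.

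Of the 10 genes, 2 made up nearly all of their summed level in the oocyte. Bpgm and Ldhb together held 3973 to 11214 RPM per oocyte (median 5855 RPM), while the other 8 together held 34.3 to 81.8 RPM (median 54.7 RPM). In the control RNA the order was the other way round, with 764 RPM for the pair and 2668 RPM for the other 8. Among all entries of the table Bpgm ranked 11 and Ldhb 46 by mean level over the oocytes, and Pdha1, the highest of the remaining genes, ranked 4950.

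**Figure D1:**
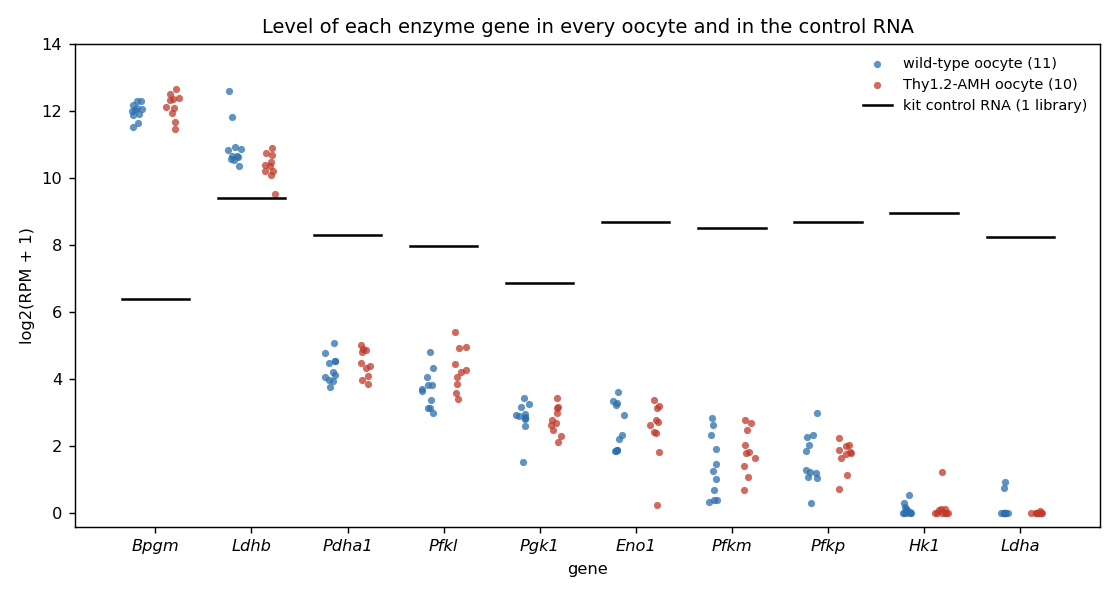
Level of each of the 10 genes on the log2(RPM + 1) scale (vertical axis), 1 point per oocyte, with wild type in blue (11 oocytes), transgenic in red (10 oocytes) and the single control RNA library as a black line. Bpgm and Ldhb lie above the control RNA in all 21 oocytes, and the other 8 genes lie below it in all of them.

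Lactate dehydrogenase was represented by 1 subunit. The enzyme is a tetramer of A and B subunits that converts pyruvate and lactate into each other, and the B form is known as the form of tissues that take up lactate. Ldhb (chromosome 6, 142490249 to 142507957, minus strand, GRCm38) stood at 1819 ± 1147 RPM (SD, 21 oocytes). The transgenic oocytes ran from 740 RPM through a median of 1328 RPM to 1924 RPM, and the wild-type oocytes from 1312 RPM through 1622 RPM to 6222 RPM. Every oocyte was above the 682 RPM of the control RNA, and the mean was 2.67 times that level.

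Ldha (chromosome 7, 46841475 to 46855627, plus strand, GRCm38) had 0 reads in 18 of 21 oocytes. Its 40 reads came from 3 oocytes, 24 from wild-type 1C (0.912 RPM), 15 from wild-type 2C (0.699 RPM) and 1 from transgenic 4B (0.0422 RPM). The control RNA held 6657 reads, or 302 RPM. Wild-type 2C, with 15 of these reads, was also the oocyte with the highest cumulus marker sum, 40.3 RPM, while wild-type 1C stood at 6.38 RPM by that sum; the part of cumulus RNA in the Ldha reads was not tested.

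Isoenzymes were compared per length, as RPM per kb of the principal transcript in GENCODE M21. Of the summed lactate dehydrogenase level, Ldhb made up 99.8% to 100% in every oocyte and 75.4% in the control RNA, where Ldha made up 24.6%. The testis form Ldhc held at most 0.177% of that sum in any oocyte. Ldhd, a mitochondrial D-lactate dehydrogenase of another protein family, stood at 8.39 RPM on average, between 2.67 and 21.4 RPM.

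Bpgm (chromosome 6, 34476207 to 34505613, plus strand, GRCm38) was the most abundant of the 10 genes, at 4390 ± 936 RPM (SD, 21 oocytes). Its enzyme makes and breaks down 2,3-bisphosphoglycerate, the compound that lowers the oxygen affinity of haemoglobin in red cells. Transgenic oocytes ran from 2791 RPM through a median of 4772 RPM to 6437 RPM, and wild-type oocytes from 2959 RPM through 4186 RPM to 5048 RPM. The control RNA held 82.5 RPM, so that the oocyte mean was 53.2 times higher. Red cell RNA was at or near 0 in the same libraries: the haemoglobin genes in the table had 0 reads in every oocyte and the summed blood markers reached at most 0.411 RPM. No 50-base stretch of the Bpgm transcript was shared with another gene's transcript.

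Hexokinase 1 was nearly absent from the reads. Hk1 (chromosome 10, 62268855 to 62379908, minus strand, GRCm38) encodes the hexokinase of brain and most adult tissues, which traps glucose as glucose-6-phosphate. It had 0 reads in 11 of 21 oocytes and 74 reads in all, of which transgenic 1C held 45 (1.35 RPM) and wild-type 2A held 10. The control RNA held 11014 reads, or 500 RPM. Hk2, the inducible hexokinase, was higher than Hk1 in the oocytes, at 2.11 RPM on average and between 0.0773 and 6.42 RPM, but its mean too stood below the control RNA at 6.03 RPM. Of the summed level per length of Hk1, Hk2, Hk3 and Hkdc1, Hk2 made up a median of 85.4% over the oocytes (18.9% to 94.4%), against 0.819% in the control RNA, where Hk1 made up 97.1%. Hkdc1 had 0 reads in every oocyte, and Hk3 reached at most 0.437 RPM.

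The phosphofructokinases catalyse the committed step of glycolysis, and their liver, muscle and platelet forms are the products of Pfkl, Pfkm and Pfkp. Pfkl (chromosome 10, 77986947 to 78010083, minus strand, GRCm38) stood at 16.8 ± 8.94 RPM (SD, 21 oocytes), between 7.00 and 41.9 RPM. Pfkm (chromosome 15, 98092589 to 98132447, plus strand) stood at 2.56 ± 1.96 RPM, between 0.274 and 6.15 RPM. Pfkp (chromosome 13, 6579768 to 6648777, minus strand) stood at 2.44 ± 1.50 RPM, between 0.233 and 6.98 RPM. All 3 were present in every oocyte, and all lay below the control RNA, which held 248, 367 and 413 RPM.

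Pfkl made up a median of 77.7% of the phosphofructokinase level per length in the oocytes (44.6% to 91.9%) and at least 50% in 20 of 21. In the control RNA it made up 22.7%, less than Pfkm at 43.4% and Pfkp at 34.0%. The ranges in the 2 genotypes overlapped, at 52.9% to 86.2% in transgenic and 44.6% to 91.9% in wild-type oocytes.

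**Figure D2:**
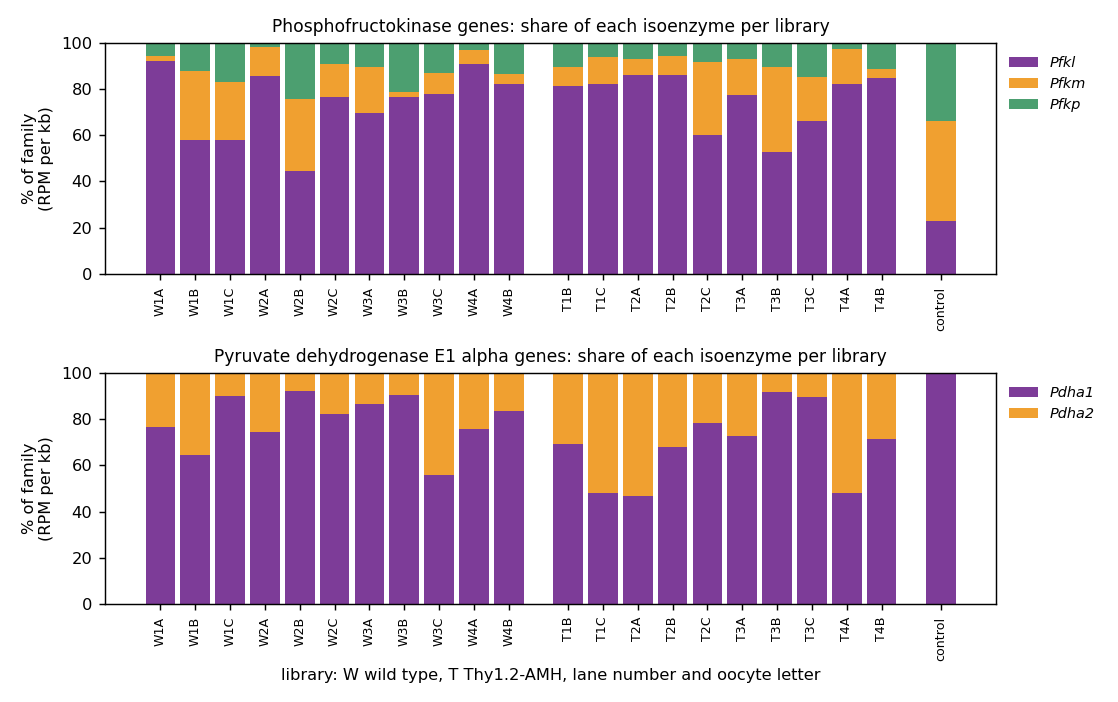
Share of each isoenzyme in the summed level of its family, in percent of RPM per kb, for the phosphofructokinases (top) and the pyruvate dehydrogenase E1 alpha genes (bottom), with 1 bar per library and oocytes named by genotype (W wild type, T transgenic), lane and letter. Pfkl is the largest phosphofructokinase share in every oocyte and the smallest in the control RNA, and Pdha2 is present in every oocyte and at 0% in the control RNA.

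Pgk1 and Eno1 serve the lower part of glycolysis. Pgk1 (chromosome X, 106187100 to 106203699, plus strand, GRCm38), which forms ATP from 1,3-bisphosphoglycerate, stood at 6.32 ± 1.96 RPM (SD, 21 oocytes), between 1.91 and 9.79 RPM, against 117 RPM in the control RNA. Eno1 (chromosome 4, 150236721 to 150248879, plus strand, GRCm38), which forms phosphoenolpyruvate, stood at 5.54 ± 2.93 RPM, between 0.194 and 11.2 RPM, against 409 RPM in the control RNA. The testis form Pgk2 had 0 reads in every oocyte, and the neuronal enolase Eno2, at 1148 RPM in the control RNA, reached at most 0.127 RPM in an oocyte.

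Copies limit the level of these last 2 genes. Of the 50-base stretches of the Eno1 transcript, 72.2% also occur in transcripts of other genes, mostly its copy Eno1b, and 68.0% of those of Pgk1 do, mostly in Pgk1-rs7. Eno1b, under the symbol Gm5506 in the table, reached 0.0466 RPM in an oocyte and 30.6 RPM in the control RNA, and Pgk1-rs7 reached 0.0915 RPM. No source used here says how the authors counted reads that match several places, so the levels of Eno1 and Pgk1 are uncertain. For Ldhb the shared part was 27.0%, for Ldha and Pfkp 17.1%, for Pdha1 16.9%, and for Hk1, Pfkm and Bpgm 0%.

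Pdha1 (chromosome X, 160122209 to 160138413, minus strand, GRCm38) encodes the E1 alpha subunit of pyruvate dehydrogenase, the subunit whose phosphorylation switches the complex off. It stood at 20.9 ± 6.21 RPM (SD, 21 oocytes), between 12.8 and 33.0 RPM, against 313 RPM in the control RNA. Its intronless copy Pdha2, known from the testis, had reads in every oocyte, at 6.41 RPM on average and between 1.37 and 18.0 RPM, and 0 reads in the control RNA. Per length, Pdha2 made up a median of 24.1% of the E1 alpha level (8.04% to 53.3%) and exceeded Pdha1 in 3 of 21 oocytes. No 50-base stretch of the Pdha2 transcript was shared with another transcript.

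The other subunits of the complex were higher than its E1 alpha genes. Per length, Pdhb, the E1 beta subunit, stood at 67.4 RPM per kb, Dlat, the E2 subunit, at 14.4, Dld, the E3 subunit, at 45.6 and Pdhx, the E3-binding protein, at 90.5 RPM per kb, against 7.33 for Pdha1 and 2.73 for Pdha2. In the control RNA Pdha1 stood at 110 RPM per kb and was above Pdhb at 89.0, Dld at 67.2, Dlat at 47.6 and Pdhx at 36.9.

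Ordered by RPM per kb, the 10 genes ran from Bpgm at 1977 and Ldhb at 1395 through Pdha1 at 7.33, Pfkl at 4.50, Pgk1 at 3.46, Eno1 at 2.73, Pfkm at 0.888 and Pfkp at 0.588 to Ldha at 0.0446 and Hk1 at 0.0329. Of these neighbours, only Ldhb and Pdha1 had ranges over the oocytes that did not overlap. Bpgm was above Ldhb in 18 of 21 oocytes, Pdha1 above Pfkl in 18, Pfkl above Pgk1 in 13, Pgk1 above Eno1 in 15, Eno1 above Pfkm in 17, and Pfkm above Pfkp in 14. Pfkp was above Ldha in all 21. Ldha was above Hk1 in only 3 of 21, so the order of their means does not hold in most oocytes. Many of the others were ties, as Ldha had 0 reads in 18 oocytes and Hk1 in 11. Within each of these pairs the ranges over oocytes overlapped.

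**Figure D3:**
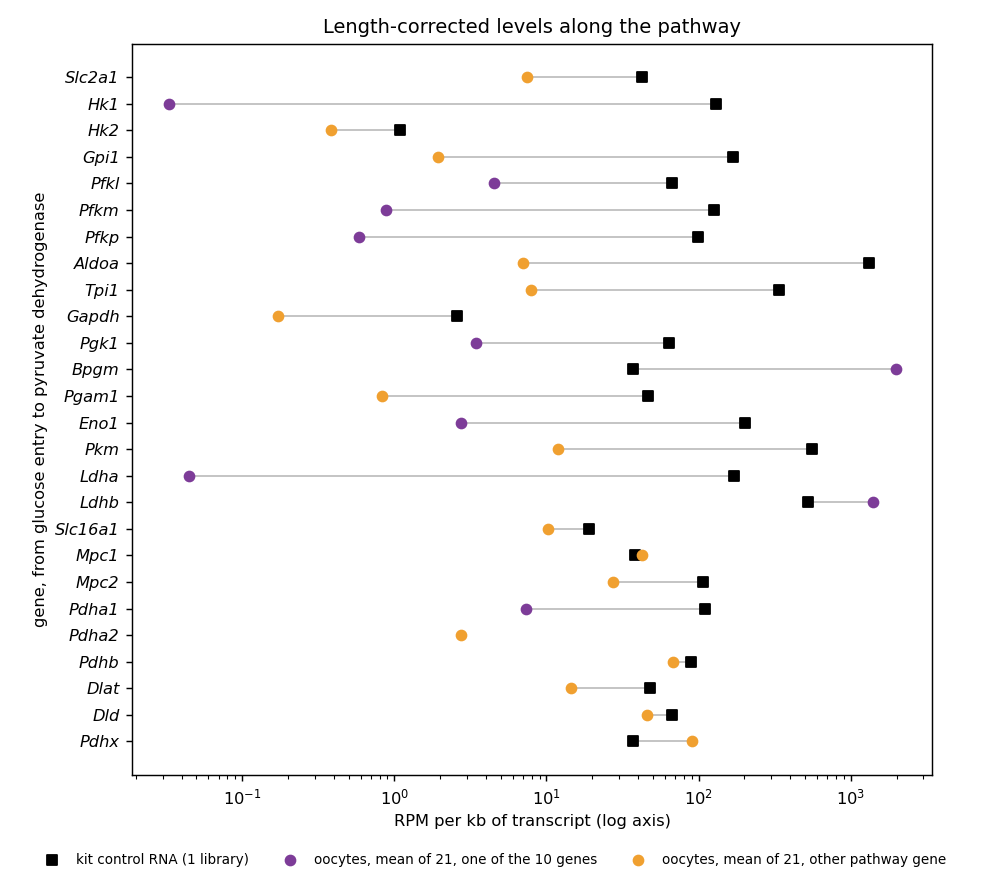
Level per length (RPM per kb of transcript, log axis) of the genes from glucose uptake to pyruvate dehydrogenase, with purple circles for the mean of 21 oocytes of the 10 genes, orange circles for other pathway genes and black squares for the control RNA; Pdha2 has no square because the control RNA held 0 reads. Bpgm at 1977 and Ldhb at 1395 RPM per kb are the only plotted genes over 100 RPM per kb in the oocytes, and among the plotted genes with reads in the control RNA Hk1 and Ldha show the widest gaps to it.

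The enzymes at the glycolytic steps not covered by the 10 genes were also low in the oocytes. The isomerase Gpi1 stood at 5.62 RPM against 486 RPM in the control RNA, the aldolase Aldoa at 10.6 against 1974 RPM, the triosephosphate isomerase Tpi1 at 12.7 against 544 RPM and the pyruvate kinase Pkm at 29.0 against 1341 RPM. Gapdh was at 0.246 RPM against 3.68 RPM, but 82.5% of its 50-base stretches recur in other transcripts, 213 of them from pseudogenes, so its level in the table is uncertain. Of the 8 genes tested among the 10, 6 lay more than 10-fold below the control RNA, against 14.7% of all genes tested (50.9% were below it by any amount) and 16 of the 59 pathway genes tested. The control is 1 library of RNA whose tissue the labels do not name, so these are comparisons of levels with no test.

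Some pathway genes were above the control RNA in the oocytes. Adpgk, which phosphorylates glucose with ADP in place of ATP, stood at 93.2 RPM against 24.9 RPM, and Pfkfb1, which makes the phosphofructokinase activator fructose-2,6-bisphosphate, at 12.0 RPM against 0.590 RPM. G6pdx, the entry enzyme of the pentose phosphate pathway, stood at 192 RPM against 54.0 RPM, and Taldo1, the transaldolase of that pathway, at 186 RPM against 127 RPM. Pdhx stood at 227 RPM against 92.5 RPM. In all, 13 of the 59 pathway genes tested were above the control RNA, against 49.1% of all genes tested.

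The carriers of pyruvate and lactate and the citric acid cycle were well represented. Slc16a1, a monocarboxylate carrier of the plasma membrane, stood at 45.5 RPM (83.5 RPM in the control RNA), its chaperone Bsg at 93.6 RPM (790 RPM) and Mpc2, a subunit of the mitochondrial pyruvate carrier, at 27.8 RPM (110 RPM). The citrate synthase Cs stood at 280 RPM (339 RPM) and Sdha, of succinate dehydrogenase, at 347 RPM (646 RPM). Of the shuttles that carry reducing equivalents into mitochondria, Mdh1 stood at 265 RPM (1298 RPM) and Got1 at 69.4 RPM (467 RPM).

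Single oocytes of 1 female differed from each other by amounts that depended on the gene. The SD of log2(RPM + 1) within females was 0.29 for Bpgm, 0.31 for Pdha1, 0.33 for Ldhb and 0.45 for Pgk1, and 0.64 for Pfkl, 0.71 for Eno1, 0.72 for Pfkp and 0.81 for Pfkm, against a median of 0.41 over all genes tested. For Bpgm the highest sister was 1.04 to 1.84 times the lowest, and for Ldhb 1.07 to 1.93 times.

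Larger gaps between sisters occurred among the low genes. Pfkp ran from 0.233 RPM in wild-type 2A to 6.98 RPM in wild-type 2B, and Pfkm from 0.309 RPM in wild-type 1A to 5.23 RPM in wild-type 1B. Eno1 was at 0.194 RPM, or 4 reads, in transgenic 3C and at 5.62 RPM in transgenic 3A. The low values rest on 4 to 8 reads, so the folds between them carry wide counting error.

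The comparison of transgenic with wild-type oocytes asks whether raised AMH goes with other levels of these transcripts in the egg. None of the 10 genes passed the threshold of 0.05 after Benjamini-Hochberg adjustment over the 10987 genes tested (limma on female means of log2(RPM + 1)). The same held for all genes, with 0% called and a smallest adjusted p of 0.724. Of the 8 genes whose mean reached the 1 RPM needed for the test, 5 had a higher and 3 a lower mean in transgenic females, with a median log2 difference of 0.13 against -0.01 over all genes. At an unadjusted p under 0.05 stood 2 of the 8, Pfkl and Ldhb, where 6.81% of all genes tested did (748 genes; 2.78% higher and 4.03% lower in transgenic females). The same 2 had female means on the log2 scale that did not overlap between genotypes, where 4.31% of all genes tested did (1.67% with transgenic higher).

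Pfkl was higher in transgenic oocytes by point estimate. The 4 transgenic females stood at 25.1, 23.8, 17.0 and 17.9 RPM in lanes 1 to 4, and the wild-type females at 13.7, 13.4, 9.31 and 17.5 RPM. The transgenic female was the higher of the pair in 4 of 4 lanes, by log2 differences of 0.82, 0.67, 0.67 and 0.26, while in plain RPM the transgenic female of lane 3 was just below the wild-type female of lane 4. Single oocytes overlapped widely, from 9.67 to 41.9 RPM in transgenic and from 7.00 to 27.3 RPM in wild type. The group means were 21.0 ± 4.10 and 13.5 ± 3.36 RPM (SD, n = 4 females each). The log2 difference was 0.61 ± 0.22 (SE; 95% interval 0.13 to 1.09; limma p = 0.0173, adjusted p = 0.724), or 0.69 with the wild-type female of lane 4 left out. Its unadjusted p was over 0.05 when the transgenic female of lane 1 (0.49), the wild-type female of lane 3 (0.47), transgenic 2A or 3A (both 0.49) or wild-type 4B (0.40) was left out.

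Ldhb was lower in transgenic oocytes by point estimate, and the size rested on 1 wild-type female. Transgenic females stood at 1082, 1462, 1590 and 1135 RPM in lanes 1 to 4, and wild-type females at 1668, 1586, 1677 and 4904 RPM. The transgenic female was the lower of the pair in 4 of 4 lanes, by log2 differences of -0.69, -0.11, -0.10 and -2.06. Group means were 1317 ± 248 and 2459 ± 1631 RPM (SD, n = 4 females each). This made a log2 difference of -0.74 ± 0.30 (SE; 95% interval -1.39 to -0.09; limma p = 0.0277, adjusted p = 0.724). With the highest wild-type female, that of lane 4, left out it was -0.36, with an adjusted p of 0.426. Leaving out the transgenic female of lane 1 (-0.64) or 4 (-0.68) or transgenic 1C (-0.62), or dropping the filter on low genes, took the unadjusted p over 0.05.

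Both oocytes of that female were high. Wild-type 4A held 3587 RPM and wild-type 4B 6222 RPM, while the other 19 oocytes lay between 740 and 1970 RPM (median 1517 RPM), a 3.28-fold difference of the means. Ldhb was the only one of the 10 genes with both oocytes of this female above all the others. The pseudogene Gm5514, which shares 27.0% of the 50-base stretches of Ldhb, was also high there, at 7.54 and 10.5 RPM against a median of 2.98 RPM. The cumulus marker sums of these 2 oocytes were 4.37 and 6.89 RPM, within the range of the others.

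**Figure D4:**
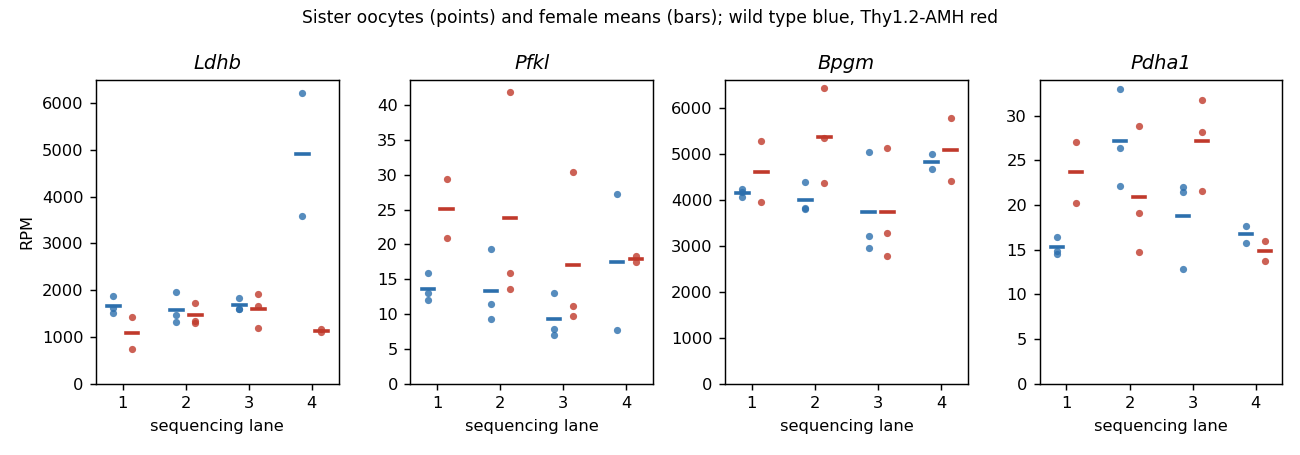
Level in RPM of Ldhb, Pfkl, Bpgm and Pdha1 by sequencing lane, with points for single oocytes, bars for the mean of each female, wild type in blue and transgenic in red; each vertical axis starts at 0. The Ldhb panel shows the wild-type female of lane 4 at 4904 RPM above 7 females between 1082 and 1677 RPM, and the Pfkl panel shows the transgenic bar above the wild-type bar in every lane.

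For the other 6 genes tested, the 95% interval of the difference included 0. For Bpgm the transgenic mean was 4709 ± 721 RPM and the wild-type mean 4186 ± 468 RPM (SD, n = 4 each), with a log2 difference of 0.15 ± 0.15 and a 95% interval of -0.17 to 0.47 (limma, adjusted p = 0.840). Pdha1 had means of 21.6 ± 5.22 and 19.5 ± 5.33 RPM; the log2 difference was 0.14 ± 0.24 with an interval of -0.37 to 0.65 (adjusted p = 0.898). It was higher in transgenic females in lanes 1 and 3 and lower in lanes 2 and 4.

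Among the low genes, Pfkm had a transgenic mean of 2.82 ± 1.13 RPM and a wild-type mean of 2.06 ± 1.37 RPM, a log2 difference of 0.45 with an interval of -0.25 to 1.15. Pfkp stood at 2.37 ± 0.489 and 2.37 ± 0.849 RPM (log2 difference 0.12, interval -0.40 to 0.65). For Pgk1 the means were 6.01 ± 0.849 and 6.46 ± 1.50 RPM (-0.08, interval -0.59 to 0.43) and for Eno1 5.77 ± 2.44 and 6.07 ± 2.96 RPM (-0.08, interval -0.85 to 0.70). The sign for Eno1 and Pfkp depends on the wild-type female of lane 4: with it left out the log2 differences were 0.20 and -0.01. The intervals of Pfkm, Pfkp, Pgk1 and Eno1 all include 0 and reach to changes of 0.43 or more on the log2 scale, so differences of that size cannot be told from none with 4 females per genotype. Ldha and Hk1 were under the mean of 1 RPM needed for the test. With no such filter their log2 differences were -0.13 and 0.07, with adjusted p of 0.838 and 0.911.

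**Figure D5:**
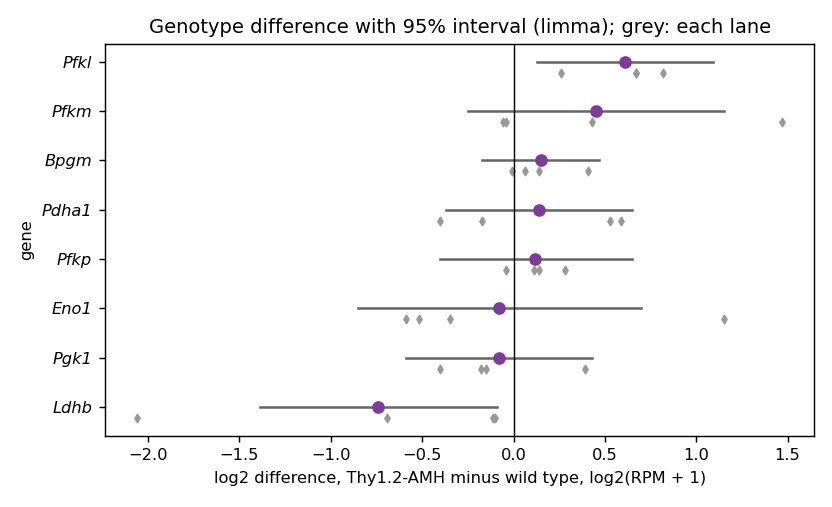
Log2 difference of transgenic minus wild-type females on the log2(RPM + 1) scale for the 8 genes tested, with purple points for the limma estimate, lines for its 95% interval and grey diamonds for the difference within each lane. The intervals of Pfkl (0.13 to 1.09) and Ldhb (-1.39 to -0.09) leave out 0 before adjustment, and the lane 4 diamond of Ldhb stands at -2.06, apart from the other 3.

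The wider pathway was read from the same fit. Of 89 listed genes of glycolysis, sugar and monocarboxylate transport, the pyruvate dehydrogenase complex, the citric acid cycle, the reducing-equivalent shuttles and the pentose phosphate pathway, 88 matched an entry and 59 were tested. None passed the adjusted threshold, 31 were higher and 28 lower in transgenic females, and the median log2 difference was 0.02. At an unadjusted p under 0.05 stood 2 of the 59, where 6.81% of all genes did; a fit blocked on the lane gave 5, and the alternatives ranged from 1 to 6. By list, the genes higher in transgenic females were 6 of 12 in glycolysis, 5 of 8 in transport, 5 of 9 in the pyruvate dehydrogenase list, 8 of 15 in the citric acid cycle, 3 of 8 in the shuttles and 4 of 7 in the pentose phosphate list.

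Pdha2 was one of those 2. Its transgenic females stood at 13.9, 9.31, 4.38 and 8.75 RPM in lanes 1 to 4, and its wild-type females at 4.14, 5.21, 4.38 and 3.53 RPM. The transgenic female was the higher in 3 of 4 lanes, the exception being lane 3, and 1 transgenic female overlapped the wild-type range. The log2 difference was 0.89 ± 0.31 (SE; interval 0.22 to 1.55; limma p = 0.0127, adjusted p = 0.724), beside 0.14 ± 0.24 for Pdha1; the difference between the 2 genes was not tested.

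Rpia, the ribose-5-phosphate isomerase of the pentose phosphate pathway, was the other. It stood at 8.28, 7.93, 15.4 and 12.7 RPM in transgenic females and at 16.0, 16.7, 17.8 and 16.6 RPM in wild-type females, with no overlap and a log2 difference of -0.58 ± 0.23 (limma p = 0.0222, adjusted p = 0.724). Others with the smallest p of their list were Gpi1 at 0.47 ± 0.24, Pfkfb1 at 0.44 ± 0.24, the pyruvate dehydrogenase kinase Pdk1 at 0.42 ± 0.24, Sdhd of succinate dehydrogenase at -0.65 ± 0.30, Dlst of the oxoglutarate dehydrogenase complex at 0.54 ± 0.26 and the glycerol-3-phosphate dehydrogenase Gpd2 at 0.71 ± 0.34 (log2 difference ± SE). Their adjusted p lay between 0.734 and 0.764. The glucose carrier Slc2a12 at 0.27 ± 0.24 and Mpc2 at -0.29 ± 0.33 had the smallest p among the transport genes.

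The patterns most like those of the 4 highest genes were found by Pearson's r of log2(RPM + 1) over the 21 oocytes among 6027 genes averaging 10 RPM or more. These values describe libraries that share lanes and mothers and carry no test. Bpgm was most like Smu1 (r = 0.91) and Rbbp7 (r = 0.90). Ldhb was most like Anapc11 (r = 0.91) and Hpcal1 (r = 0.90), which dropped to 0.68 and 0.72 over the 19 oocytes outside the wild-type female of lane 4. Pfkl was most like Add3 and Dcun1d2 (both r = 0.74), and Pdha1 most like Hspa13 and Rrp1b (both r = 0.65). Among the 8 tested genes themselves the highest r over 21 oocytes was 0.47, for Pfkp with Pfkm (0.44 over the 19). Over the 19 oocytes it was 0.58, for Pgk1 with Ldhb, which stood at 0.31 over all 21. Bpgm and Ldhb, the 2 abundant ones, stood at r = 0.09 over 21 and -0.13 over 19.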

How the data were processed

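Per the labels' protocols, cDNA of single oocytes came from the SMART-Seq v4 kit and libraries from ThruPLEX. Tools and builds in the submitters' processing notes are HISAT2, Trim Galore and FastQC, GRCm39 and mm39; no counting tool is named there. The table's coordinates are those of GRCm38: 99.8% of the 25057 IDs found in GENCODE M21 overlap the gene of that ID. The authors deposited log2 values. They are described as RPKM but hold log2 RPM with no division by length, and 0 reads appear as 0.9; of the 256342 values above 0 and under 2000 reads, 100% gave whole reads within 0.02, as did 99.84% of all values above 0. No strand setting is stated, so antisense genes could share reads.

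RPM was computed from the deposited log2 values by undoing the log, with genes of 0 reads set to 0. Oocytes were averaged per female as log2(RPM + 1), which understates changes of low genes, and 4 against 4 females were compared with limma 3.58.1 in R 4.3.3 (eBayes with trend, two-sided), over genes averaging 1 RPM or more, with Benjamini-Hochberg adjustment. The labels do not say whether the females were litter mates. The members and all gene lists were chosen with earlier results of these data known. Named genes were the 10 members, in each pathway list the 2 with the smallest p and the 2 highest, the isoenzymes of members (1 of which is not reported here), and Gapdh, Aldoa, Tpi1, Pkm and Gpi1; Pdhb, Dlat and the marker genes are named outside this rule. The lane pairs the females, by the labels; deviations of lane mates correlated at -0.04, 0.084, 0.342 and 0.317, against a median of -0.054 for other pairs. On simulated data of 10820 genes the test found 93% of genes made to differ by 2 on the log2 scale. It found 55% of those made to differ by 1, with 10 false calls. The genes made to differ came from a range of levels that Pfkm and Pfkp did not reach. Noise was drawn for each gene on its own, so these rates may not hold for low genes or for females that stand apart. The alternatives were another pseudocount, no filter, a lane block, median-of-ratios scaling, single oocytes, voom, and leaving out each female or oocyte. Not analysed here were transgenic oocyte 1A and the water control. Intervals of differences are limma's and reflect the spread between females; floors of 3 reads cover counting error only.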

Additional observations from a re-analysis of the deposited data

Results flagged for a closer look

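A sample far from the others of its group was looked for in 30 groups of females or oocytes of the 10 genes, by the size of the gap to its nearest neighbour, and 5 were found; at the 95% level used, some such groups turn up by chance. Values are log2(RPM + 1). The wild-type female of lane 4 stood at 12.21 for Ldhb, with the next wild-type female at 10.71. Transgenic oocyte 1C stood at 1.23 for Hk1, with the next transgenic oocyte at 0.13. Transgenic oocyte 3C stood at 0.26 for Eno1, with the next at 1.84. For Ldha, transgenic oocyte 4B stood at 0.06 and its female at 0.03 with all other transgenic oocytes at 0, which is a single read.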

How the results depend on the processing

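No member and no pathway gene passed the adjusted threshold under any of the 35 alternatives. Among all genes the count past it was 0, and it was 12 when single oocytes were fitted with a random effect of the female and the lane as replicate block, and 0 to 1 over the fits that left out a female or an oocyte (1 without the transgenic female of lane 1). With the lane as replicate block alone, 0 genes passed, with a smallest adjusted p of 0.447 and 1028 genes at an unadjusted p under 0.05, and the block changed no adjusted call and no unadjusted call of a member. Of 280 values of the 8 tested members 271 kept their direction. Those that changed sign did so when a sample was left out: Pfkp (0.12; leave-out values -0.05 to 0.28) gave -0.01 without the wild-type female of lane 4, -0.05 without wild-type oocyte 2A and -0.02 without transgenic oocyte 4B. Pgk1 (-0.08; -0.24 to 0.04) gave 0.02 without the wild-type female of lane 3 and 0.04 without transgenic oocyte 1C. Eno1 (-0.08; -0.31 to 0.20) gave 0.18 and 0.20 without the transgenic female of lane 3 and the wild-type female of lane 4, and 0.12 and 0.03 without transgenic oocyte 3C and wild-type oocyte 3B. Ldhb ran from -0.89 to -0.36 and Pfkl from 0.40 to 0.82. The unadjusted p of Pfkl was over 0.05 without the transgenic female of lane 1, the wild-type female of lane 3, or transgenic oocyte 2A or 3A or wild-type oocyte 4B. That of Ldhb was over it with no filter, and without the transgenic female of lane 1 or 4 or transgenic oocyte 1C. Pfkm ran from 0.28 without the wild-type female of lane 4 to 0.82 with a pseudocount of 0.1. The cause of these changes was not tested. Depth limits Ldha and Hk1, which held 40 and 74 reads over all oocytes.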
